A study of Arabidopsis halleri subsp. gemmifera and Arabidopsis thaliana with 4 samples.

Results

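Roots take up most of their nitrogen as nitrate and convert it to glutamine and glutamate through a short chain of enzymes. The 10 genes described here encode that chain in Arabidopsis and were taken as a fixed list of loci: the nitrate reductases NIA1 and NIA2, the nitrite reductase NIR1, the glutamine synthetases GLN1;1, GLN1;2, GLN1;3, GLN1;4 and GLN2, and the glutamate synthases GLT1 and GLU1. All 10 were found among the 33602 loci of the deposited tables, and all 10 had enough reads to be tested. Nitrate reductase, a cytosolic enzyme with a molybdenum cofactor, reduces nitrate to nitrite. Nitrite reductase, a plastid enzyme that holds siroheme and takes electrons from ferredoxin, reduces nitrite to ammonium. Glutamine synthetase joins ammonium to glutamate, and glutamate synthase passes the amide nitrogen of glutamine on to make new glutamate.

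Total root RNA was sequenced from Arabidopsis halleri subsp. gemmifera, a zinc and cadmium accumulating relative of thale cress, and of Arabidopsis thaliana. Each species had 2 libraries, labelled as biological replicates of a control, and the labels name no age, accession or genotype and no number of plants or cultures behind each. The p-values therefore measure the spread between these libraries, which may be partly technical. All 4 libraries came from the same half-strength Hoagland hydroponic solution, which supplied nitrate as 3 mM KNO3 and 2 mM Ca(NO3)2, ammonium as 0.5 mM NH4H2PO4, molybdenum as 0.08 µM Na2MoO4 and iron as 10 µM NaFeEDTA. Setting the species side by side asks how the genes of nitrate assimilation differ between roots given the same nitrogen.

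The libraries held 15497893 to 22762183 reads assigned to transcript models, so that 1 read was worth 0.0452 to 0.0634 CPM (read counts scaled to a common library size with TMM factors). Reads from either species were assigned to models of A. thaliana, so each difference joins expression with how well A. halleri reads matched, and the part of matching was not tested. In whole roots, fewer cells of a type and less RNA per cell cannot be told apart. All 8 root marker genes had reads in every library, with 3 higher in A. halleri and 5 not called. Of the 11 green tissue markers, 9 were higher in A. halleri, RCA was not called and RBCS2B was too low to test. Over all tested loci, 35.7% were called higher in A. halleri and 36.8% lower. The summed level of the green tissue markers was 158 and 205 CPM in A. halleri against 32.6 and 29.2 for A. thaliana. That of the root markers was 6556 and 5866 CPM against 1685 and 1606. Most of the root sum was PYK10, at 6260 and 5601 CPM against 1412 and 1337.

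Most of these genes differed between the species, mainly by modest amounts, and the share of NIA2 among nitrate reductase reads and of GLN1;2 among cytosolic glutamine synthetase reads was lower in both A. halleri libraries. By edgeR's quasi-likelihood test at an adjusted p of 0.05, 6 of the 10 genes were higher in A. halleri, 1 was lower and 3 were not called. Of all 20899 loci tested, 72.5% were called, 35.7% higher and 36.8% lower, so the 70.0% called among these genes lay near the background. The libraries of the species did not overlap for 8 of the 10 genes, against 87.2% of all tested loci. The median log2 fold change of the 10 genes was 0.42, beside -0.01 over all tested loci. Without regard to sign, the median over all tested loci was 0.77, above the called differences of NIA1, GLN1;1 and GLN2. Against a change of at least 2-fold, a stricter test, the calls of NIA2 and GLN1;4 stood and the other 5 were lost.

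**Figure D1:**
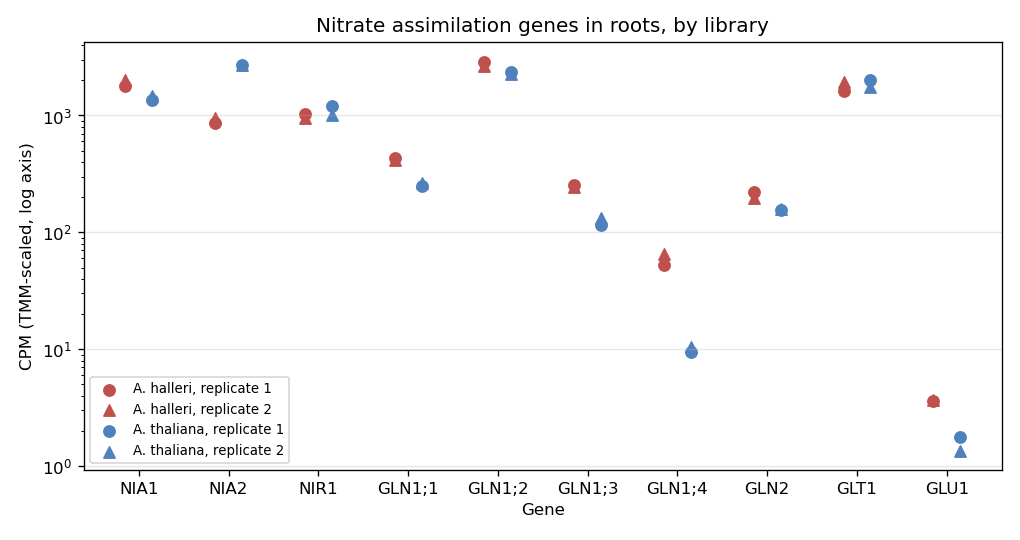
Level of each gene in each library, in CPM on a log axis. Red symbols are A. halleri and blue symbols A. thaliana, with circles for replicate 1 and triangles for replicate 2. The libraries overlap between species for NIR1 and GLT1, and GLN1;4 shows the widest gap, at 52.8 and 65.2 CPM against 9.42 and 10.4.

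By assigned reads, the pair of nitrate reductase genes exchanged rank between the species. NIA2 (AT1G37130, TAIR10.1 chromosome 1, 14158452 to 14161938, plus strand, 3 exons), known in A. thaliana seedlings as the source of most nitrate reductase activity, stood at 866 and 951 CPM in A. halleri and at 2685 and 2716 CPM in A. thaliana. Both A. halleri libraries lay far below both A. thaliana libraries. Its mean level was 909 ± 60.6 CPM against 2701 ± 22.2 CPM (SD, n = 2), 2.97-fold lower in A. halleri (log2 -1.57, SE 0.10, edgeR adjusted p = 9.63e-06). Of all tested loci, 25.9% differed by at least as much in either direction.

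NIA1 (AT1G77760, chromosome 1, 29235721 to 29239484, minus strand, 4 exons), the second nitrate reductase, moved the other way. It stood at 1776 and 2022 CPM in A. halleri and at 1369 and 1455 CPM in A. thaliana. The groups did not overlap, but the gap between the nearest libraries was smaller than for NIA2. NIA1 was 1.34-fold higher in A. halleri (log2 0.43, SE 0.11, edgeR adjusted p = 0.00779).

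Levels of the pair can be set beside each other on the deposited RPKM scale, which divides reads by model length. NIA2 was at 0.473 and 0.456 times the RPKM of NIA1 in A. halleri and at 1.90 and 1.81 times in A. thaliana. By assigned reads per length, NIA1 was therefore the higher of the pair in both A. halleri libraries and NIA2 in both A. thaliana libraries. How well A. halleri reads matched each of the 2 models was not tested. NIA2 took 32.8% (95% Wilson interval 32.3 to 33.2) and 32.0% (31.6 to 32.4) of the reads of the pair in A. halleri. In A. thaliana its share was 66.2% (65.9 to 66.6) and 65.1% (64.8 to 65.4). Such intervals hold counting error alone and leave out the spread between libraries, and those of the A. thaliana libraries did not overlap. PCR copies of 1 molecule are counted as separate reads, so the intervals can be too narrow even for counting error.

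The summed reads of NIA1 and NIA2 were lower in A. halleri, since the NIA2 difference was the larger in reads. The sum stood at 2642 and 2974 CPM in A. halleri against 4053 and 4171 CPM in A. thaliana. It was 1.46-fold lower (log2 -0.55, SE 0.11, edgeR adjusted p = 0.00272), a result that does not depend on how reads were divided within the pair.

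The coding sequences of NIA1 and NIA2 were identical at 73.8% of 2724 aligned bases, and their longest identical run was 20 bases. Every read counted for either gene was recorded as unique to its model in all 4 libraries. The same held for every member with a single model, while those with several models had 1.64% to 11.4% unique reads. The record thus followed the number of models and does not show how reads were divided within the pair. The most alike 60 bases of the pair are shown because they are where a read of one gene could most easily be counted for the other. They were read 5′ to 3′ from the coding strand of the TAIR10.1 genome, with positions counted from 1 at the start codon (1051 to 1110 in NIA1, 1042 to 1101 in NIA2), and capitals mark the 6 bases that differ.
NIA1: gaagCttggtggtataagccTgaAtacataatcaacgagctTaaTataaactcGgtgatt
NIA2: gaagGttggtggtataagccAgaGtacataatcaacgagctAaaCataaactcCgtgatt
The 6 differences are spread along the window. How A. halleri copies compare with it was not tested.

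NIR1 (AT2G15620, chromosome 2, 6810395 to 6812941, plus strand, 4 exons), the gene of the next step, stood at 1028 and 943 CPM in A. halleri and at 1205 and 1016 CPM in A. thaliana. The groups overlapped, with replicate 1 of A. halleri above replicate 2 of A. thaliana. The difference was not called (log2 -0.17, 95% interval -0.44 to 0.09, edgeR adjusted p = 0.201). On the RPKM scale the summed nitrate reductases were at 1.77 and 2.17 times NIR1 in A. halleri and at 2.29 and 2.80 times in A. thaliana. The species did not overlap, but their nearest libraries, at 2.17 and 2.29, lay closer than the libraries within either species. The difference in this ratio was not tested.

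**Figure D2:**
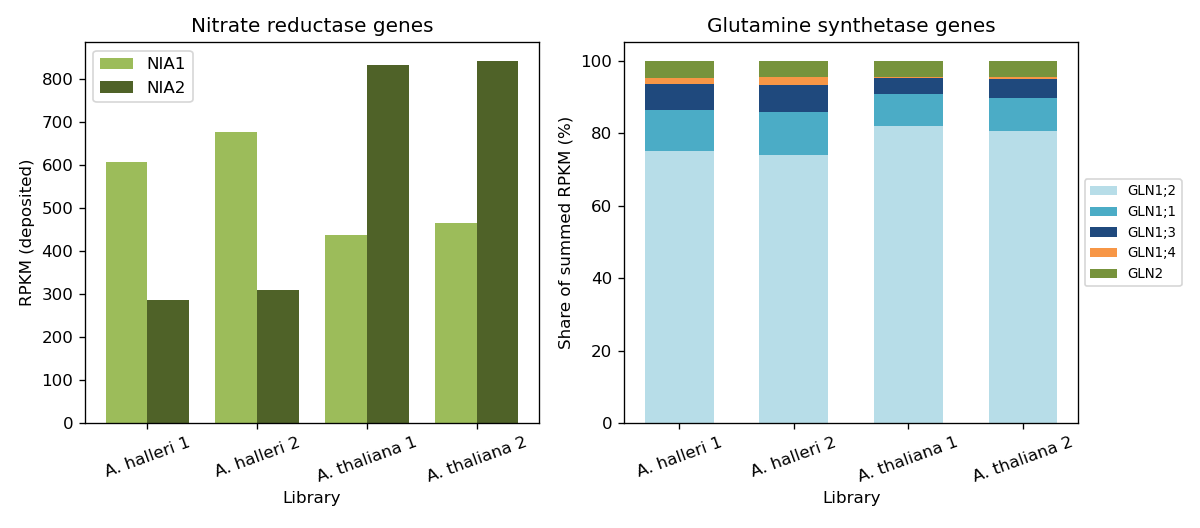
Left, deposited RPKM of NIA1 and NIA2 in each library. Right, share of each gene in the summed RPKM of the 5 glutamine synthetase genes, in percent. NIA1 is the taller bar in both A. halleri libraries and NIA2 in both A. thaliana libraries, and GLN1;2 fills 74.0% to 74.9% of the glutamine synthetase total in A. halleri and 80.4% to 82.1% in A. thaliana.

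Cytosolic glutamine synthetase, the form that assimilates ammonium in roots, is encoded by the GLN1 genes. The most abundant, GLN1;2 (AT1G66200, chromosome 1, 24655115 to 24657703, minus strand), known as a low-affinity isoform, stood at 2877 and 2657 CPM in A. halleri and at 2361 and 2285 CPM in A. thaliana. Both A. halleri libraries were above both A. thaliana libraries, yet the difference missed the threshold (1.19-fold, log2 0.25, SE 0.10, edgeR adjusted p = 0.0535). It passed with DESeq2 (adjusted p = 0.0228), with upper-quartile scaling (0.0209), with library totals only (0.0199) and with no filter on low counts (0.0241). It missed with limma on log2 RPKM plus 1 (0.0717) or plus 0.1 (0.0854), with RLE scaling (0.0623), with a replicate block (0.0778) and with the 1 CPM filter (0.0530). When a library was left out, the difference ranged from log2 0.21 to 0.32. On reads unique to 1 of its 3 models, 8.40% to 11.0% of its reads, the difference fell to log2 0.04 (adjusted p = 0.687).

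The 3 less abundant cytosolic genes were all higher in A. halleri, and the least abundant differed most. GLN1;4 (AT5G16570, chromosome 5, 5421589 to 5424749, minus strand, 12 exons), a high-affinity isoform, had 895 and 1027 reads in A. halleri against 166 and 230 for A. thaliana. That is 59.0 ± 8.76 CPM against 9.91 ± 0.683 CPM (SD, n = 2), 5.94-fold higher (log2 2.57, SE 0.14, edgeR adjusted p = 4.45e-06). Of all tested loci, 15.0% differed by at least as much in either direction.

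GLN1;3 (AT3G17820, chromosome 3, 6097201 to 6099595, plus strand, 9 exons), a low-affinity isoform, stood at 254 and 245 CPM in A. halleri and at 116 and 132 CPM in A. thaliana. It was 2.01-fold higher, with groups well apart (log2 1.01, SE 0.09, edgeR adjusted p = 6.07e-05). GLN1;1 (AT5G37600, chromosome 5, 14933286 to 14935885, minus strand, 9 exons), a high-affinity isoform, stood at 434 and 419 CPM against 247 and 265 CPM. It was 1.67-fold higher, again without overlap (log2 0.74, SE 0.09, edgeR adjusted p = 0.000183). The called genes thus included isoforms of both affinity classes.

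The summed reads of the 4 cytosolic genes stood at 3619 and 3388 CPM in A. halleri and at 2733 and 2692 CPM in A. thaliana. The sum was 1.29-fold higher in A. halleri (log2 0.37, SE 0.10, edgeR adjusted p = 0.0122), and log2 0.67 on unique reads (adjusted p = 0.000311), where few reads of the most abundant member count. The most abundant member took 79.5% (95% Wilson interval 79.2 to 79.8) and 78.5% (78.1 to 78.8) of these reads in A. halleri, against 86.4% (86.1 to 86.7) and 84.9% (84.6 to 85.2) in A. thaliana. The share of the 5.94-fold higher gene was 1.46% and 1.92% in A. halleri against 0.345% and 0.386% for A. thaliana. No library of one species reached into the range of the other for either share.

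Read assignment within this family deserves a closer look at the sequences, because its members are more alike than the nitrate reductases. GLN1;1 and GLN1;2 were identical at 87.5% of 1071 aligned coding bases, with a longest identical run of 44 bases. GLN1;4 was identical to the other 3 at 76.3% to 78.8%, with longest runs of 20 to 28 bases, and its most alike window was shared with GLN1;3. The most alike 60 bases of each pair are shown on the coding strand of TAIR10.1, at coding positions 892 to 951 for the first pair and 835 to 894 for the second, with capitals at the bases that differ.
GLN1;1: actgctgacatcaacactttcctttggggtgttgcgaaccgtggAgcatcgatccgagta
GLN1;2: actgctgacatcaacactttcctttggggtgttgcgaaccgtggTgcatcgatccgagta
GLN1;3: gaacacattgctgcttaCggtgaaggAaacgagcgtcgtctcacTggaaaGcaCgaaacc
GLN1;4: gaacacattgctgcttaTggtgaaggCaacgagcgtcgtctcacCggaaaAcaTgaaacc
The first pair differs at 1 base of its window and the second at 5. How often reads were exchanged between these genes was not tested. All reads of the 3 genes with a single model (GLN1;1, GLN1;3 and GLN1;4) were recorded as unique. Since this held for every member with a single model, it does not show how reads were divided between these genes.

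Plastid glutamine synthetase, GLN2 (AT5G35630, chromosome 5, 13830429 to 13833542, plus strand, 11 exons), is best known for recapturing ammonium from photorespiration in leaves. It stood at 221 and 197 CPM in A. halleri and at 155 and 159 CPM in A. thaliana. The groups did not overlap, and the gene was 1.33-fold higher in A. halleri (log2 0.41, SE 0.09, edgeR adjusted p = 0.00473). The call was lost with reads unique to 1 of its 3 models, 287 and 250 against 234 and 330 reads (log2 0.25, adjusted p = 0.108). On the RPKM scale the cytosolic genes together were at 20.2 and 21.2 times GLN2 in A. halleri and at 21.6 and 20.8 times in A. thaliana, so the balance of cytosolic to plastid transcripts overlapped between the species.

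**Figure D3:**
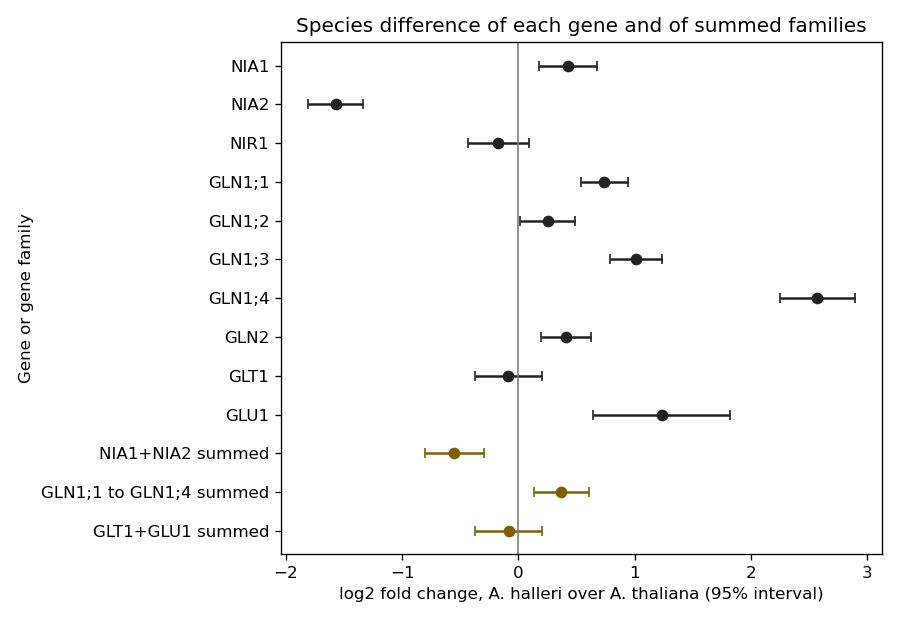
Log2 fold change of A. halleri over A. thaliana with its 95% interval from the edgeR fit, for each gene (black) and for families with their reads summed (brown). The intervals of NIR1, GLT1 and the summed GLT1 and GLU1 reads span 0, NIA2 lies lowest at -1.57 and GLN1;4 highest at 2.57.

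The last step showed no called difference in its abundant gene. GLT1 (AT5G53460, chromosome 5, 21700187 to 21710296, plus strand, 20 exons), the NADH-dependent glutamate synthase of non-green tissue, stood at 1608 and 1935 CPM in A. halleri and at 1993 and 1767 CPM in A. thaliana. The groups overlapped, and the sign of the difference changed between replicate numbers, at log2 -0.31 for replicate 1 and 0.13 for replicate 2. No label ties same-numbered libraries of the species together, so this pairing is arbitrary. The gene was not called (log2 -0.09, 95% interval -0.38 to 0.20, edgeR adjusted p = 0.552), and its sign turned with upper-quartile scaling (log2 0.000111).

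Reads unique to 1 of the 3 models of GLT1 gave a different result. They numbered 1185 and 1059 in A. halleri against 3934 and 4471 for A. thaliana, which is 4.34% and 3.47% of the locus reads against 11.2% and 11.4%. On these reads the gene was lower in A. halleri (log2 -1.60, edgeR adjusted p = 6.71e-06). Reads assigned to model 2 made up 0.425% and 0.525% of the locus in A. halleri against 1.48% and 1.63% for A. thaliana, and those of model 3 made up 0.422% and 0.502% against 1.60% and 1.62%. Reads assigned to the minor models were thus a smaller part of the locus in both A. halleri libraries. Only 1 read of each minor model was unique to it in either A. halleri library. For A. thaliana, model 2 had 21 and 27 such reads and model 3 had 23 and 30. Nearly all unique reads of the locus lay in model 1, with 1183 and 1057 (A. halleri) and 3890 and 4414 (A. thaliana). Whether transcripts of the minor models were fewer was not tested.

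GLU1 (AT5G04140, chromosome 5, 1129785 to 1138488, plus strand, 33 exons), the ferredoxin-dependent glutamate synthase of leaf photorespiration, had few reads, with 61 and 58 reads in A. halleri, with 31 and 30 in A. thaliana. It was 2.35-fold higher in A. halleri at this low level, 3.60 and 3.68 CPM against 1.76 and 1.36 (log2 1.23, SE 0.25, edgeR adjusted p = 0.00314). With limma on log2 RPKM plus 1, a pseudocount above its RPKM in every library, the value was log2 0.41 (adjusted p = 0.00791). On the RPKM scale GLT1 was at 333 and 393 times GLU1 in A. halleri and at 844 and 972 times in A. thaliana. The green tissue markers moved the same way, as given above, and their part in the differences of GLU1 and GLN2 was not tested. BHLH101, which overlaps GLU1 by 79 bases on the other strand, had 20 and 16 reads against 8 and 10, and whether counting used strand is not stated in the labels or headers.

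GLU2 (AT2G41220), the second ferredoxin-dependent glutamate synthase gene and no member of the list, was named after its values were seen because it resembles GLU1 at 83.1% over 242 bases. It stood at 461 and 447 CPM in A. halleri and at 291 and 271 CPM in A. thaliana, 1.62-fold higher in A. halleri (log2 0.69, SE 0.09, edgeR adjusted p = 0.000255). Its RPKM was 116 to 122 times that of GLU1 in A. halleri and 158 to 190.3 times in A. thaliana. Since the counting could split reads between such copies, the GLU1 difference is uncertain. The other near copy outside the list, GLN1;5 (AT1G48470), a cytosolic glutamine synthetase best known from seeds, had 0 to 4 reads a library.

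Related genes were read from 4 lists drawn up for the steps around the chain, which together held more genes than the chain. Among the genes named below, the largest differences exceeded those of the chain, except in the list of nitrate regulators. In that list NLP9 was 13.2-fold higher in A. halleri, at a mean of 2.08 CPM against 0.147, under the 10 CPM set for naming. In cofactor synthesis, which makes the molybdenum cofactor of nitrate reductase and the siroheme of nitrite reductase, 1 of 8 genes was higher in A. halleri, 3 were lower and 4 were not called (median log2 -0.16). So 4 of 8 were called, a lower share than the 72.5% of all tested loci. UPM1 (AT5G40850), a methyltransferase of siroheme synthesis, stood at 73.3 and 82.0 CPM in A. halleri and at 711 and 552 CPM in A. thaliana. It was 8.13-fold lower (log2 -3.02, SE 0.14, edgeR adjusted p = 2.67e-06), while NIR1, whose enzyme carries siroheme, was not called. The molybdenum cofactor genes CNX3 (AT1G01290) and CNX7 (AT4G10100) were 3.03-fold and 1.66-fold lower, and CNX2 (AT2G31955) was 1.55-fold higher.

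In reductant supply, the ferredoxins, their reductases and the pentose phosphate enzymes, all 14 genes were called, 7 higher and 7 lower (median log2 -0.13), against 72.5% of all tested loci. RFNR2 (AT1G30510), a root ferredoxin reductase that passes electrons from NADPH towards nitrite reductase, stood at 312 and 291 CPM in A. halleri and at 1189 and 1038 CPM in A. thaliana. It was 3.69-fold lower (log2 -1.88, SE 0.11, edgeR adjusted p = 5.37e-06). PGD3 (AT5G41670), a 6-phosphogluconate dehydrogenase, was 3.54-fold lower, at 262 and 249.7 CPM against 995 and 818. G6PD4 (AT1G09420), annotated as a glucose-6-phosphate dehydrogenase, went the other way from 1.65 ± 0.482 CPM in A. thaliana to 34.8 ± 2.78 CPM in A. halleri, 20.7-fold higher. FD2 (AT1G60950), the main leaf ferredoxin, was 3.91-fold higher, in libraries where the green tissue markers were higher too, and the part of those markers was not tested.

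Among the nitrate regulators, transcription factors and signalling proteins of the nitrate response, 8 of 22 were higher and 11 lower, while 3 missed the threshold (median log2 -0.37). Of this list 86.4% were called, against 72.5% of all tested loci. The related repressors of nitrate-responsive genes split. HHO1 (AT3G25790) was 4.56-fold higher in A. halleri, at 44.6 and 35.5 CPM against 8.63 and 8.94. HHO2 (AT1G68670) was 3.54-fold lower and HHO3 (AT1G25550) 2.88-fold lower. NLP2 (AT4G35270), of the NIN-like factors that switch on nitrate-responsive genes, was 2.75-fold lower, at 12.5 and 15.6 CPM against 38.2 and 39.1. The NIN-like factors split too, since others in the list were called higher, called lower or not called.

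In the list around ammonium and amino acids, 6 of the 18 genes with enough reads stood higher in A. halleri, 7 lower, and 5 missed the threshold (median log2 -0.04). The 72.2% called was near the 72.5% of all tested loci. PPC4 (AT1G68750), the bacterial-type phosphoenolpyruvate carboxylase, had 543 and 550 reads in A. halleri against 1 and 1 for A. thaliana, which after scaling for library size is 664 times as many, with a 95% exact interval from counting of 183 to 5489. PPC2 (AT2G42600), a plant-type enzyme of the same reaction, was 6.02-fold higher, at 118 and 124 CPM against 21.4 and 18.8. Both supply carbon skeletons for amino acids. ASN1 (AT3G47340), a glutamine-dependent asparagine synthetase, was 12.3-fold lower, at 2.71 and 4.19 CPM against 40.4 and 43.9. ASP2 (AT5G19550), the cytosolic aspartate aminotransferase, was 4.42-fold lower, at 461 and 582 CPM against 2301 and 2312.

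**Figure D4:**
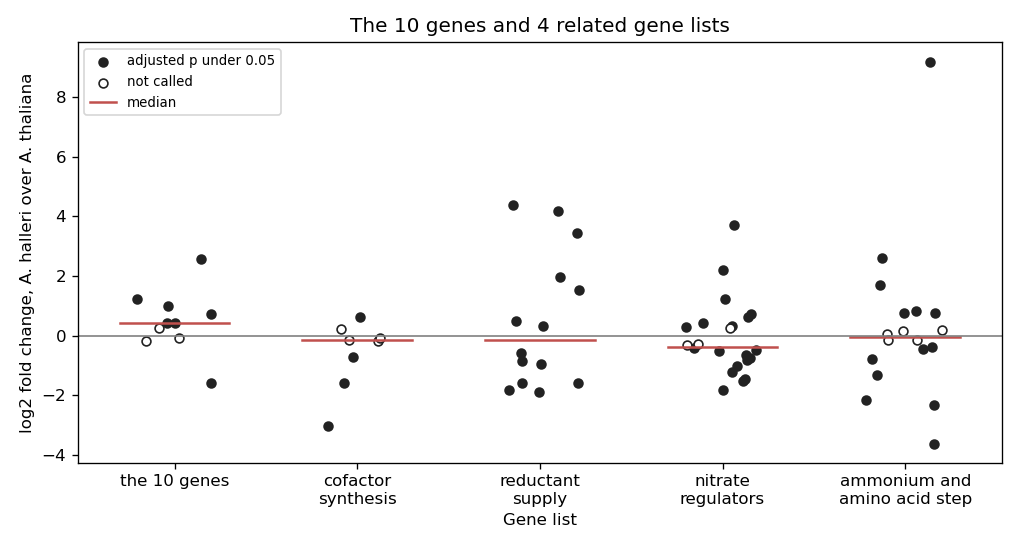
Log2 fold change of A. halleri over A. thaliana for the 10 genes and for the tested genes of 4 related lists. Filled points passed an adjusted p of 0.05, open points did not, and red lines are medians, at 0.42 for the 10 genes and between -0.37 and -0.04 for the lists.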

How the data were processed

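Reads were assigned to TAIR 10 models, per the submitters' processing notes, with aligner, counter and strand setting not given in the sources used here. Per the file headers, the authors deposited whole-number counts of total and unique reads for 41671 transcript models, and RPKM values that total counts, lengths and library totals reproduce to rounding. Total counts were summed over the models of each locus, and 32835 of 33602 loci were found in the TAIR10.1 annotation. Depth was 16335761 and 15497893 reads for A. halleri, and for A. thaliana 18127031 and 22762183. The species were compared by the quasi-likelihood test of edgeR 4.0.16 (R 4.3.3) on TMM-scaled counts with the default filter, with Benjamini-Hochberg adjustment over all 20899 tested loci. The SE is the log2 fold change divided by the root of F. Families were tested with their rows replaced by their sum. Coding sequences of model 1 were aligned with Biopython 1.88, and similar loci (at least 80% over at least 100 bases) were found with BLAST 2.17.0. Named genes were the 10 members and, of each related list, the 4 called genes with the largest change that reached 10 CPM in either species. The members and lists were chosen with earlier results of these data known. The tests were repeated with RLE, upper-quartile or no scaling factors, with DESeq2 1.42.0, with limma 3.58.1 on log2 RPKM plus 1 or 0.1, with no or a 1 CPM filter, on unique reads, against a 2-fold null, with a replicate block and without each library.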

Additional observations from a re-analysis of the deposited data

How the results depend on the processing

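Of 239 values recomputed under the alternatives, 215 kept their direction and side of the threshold, or for counts stayed within 1.5 times. Against a 2-fold change, 6391 loci were called in all and 1 of the 10 genes was called higher, which follows from the stricter null. The calls lost there, with log2 values as before, were NIA1 (0.43), GLN1;1 (0.74), GLN1;3 (1.01), GLN2 (0.41), GLU1 (1.23) and the sums of NIA1 and NIA2 (-0.55) and of the cytosolic GLN1 genes (0.37). With unique reads 2 genes were lower, GLN2 was not called (log2 0.25), GLN1;2 moved to 0.04, the cytosolic sum to 0.67, GLU1 was not tested for want of reads, and GLT1 and the GLT1 and GLU1 sum were called lower (log2 -1.60 for both). GLN1;2 was called with upper-quartile scaling (log2 0.34), library totals (0.33), DESeq2 (0.24) and no filter (0.25), and ranged from 0.21 to 0.32 when a library was left out, the cause of which was not tested. With upper-quartile scaling the uncalled GLT1 turned to log2 0.000111 and its sum with GLU1 to 0.00188, and with a library left out they ranged from -0.22 to 0.0533 and from -0.22 to 0.0553. With the replicate number as a block 14819 loci were called, and the calls of the 10 genes were the same as without it. Deviations of same-numbered libraries correlated at -0.05 across 20899 loci, and no label ties a number to a shared culture or day. The libraries were therefore not paired, and whether the numbers mark a shared batch cannot be told. With limma on log2 RPKM plus 1 GLU1 moved to 0.41, through the pseudocount. Depth limits GLU1, at 30 to 61 reads a library.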
